A study of Mus musculus with 9 samples.

Results

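The 40 interferon-stimulated genes described here were taken by symbol from the table of 24453 genes, and all 40 were found. They encode IFIT proteins, the OAS enzymes and PKR, other antiviral effectors, the ISG15 system, sensors of nucleic acids, transcription factors of the pathway, the antigen-processing genes of MHC class I and guanylate-binding proteins. Of these genes, 39 passed the filter on low read numbers that 13651 genes of the table passed, and Oas3 did not. The genes were followed in 3 libraries each of hepatic stellate cells (HSCs), CCl4-fib and NASH-fib, all labelled as C57BL/6J. HSCs were separated by density gradient from normal livers of wild-type mice and were not sorted. CCl4-fib came from Col1a2-GFP Tg mice, in which the collagen α2(I) promoter drives green fluorescent protein, given carbon tetrachloride (CCl4) 2 times per week for 8 weeks. NASH-fib came from the same transgene crossed into mice lacking the melanocortin 4 receptor (MC4R-KO), obese animals fed Western diet (WD) for 20 weeks from 8 weeks of age. Both kinds of fibroblast were sorted as live CD45- GFP+ cells, a gate for collagen-producing cells, although their libraries also held markers of other cells (below). HSCs, in contrast, are resting precursors. Genotype, diet, toxin and isolation differ together between the groups. RNA of each library came from a pool of 3 to 5 mice, so p-values measure the spread between pools.

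Type I interferons bind the receptor made of IFNAR1 and IFNAR2, whose kinases JAK1 and TYK2 pass the signal on to STAT2. STAT2 and IRF9 are parts of the complex ISGF3, which binds the interferon-stimulated response element of target genes, while interferon-γ acts on the gamma-activated site. The products of the target genes bind viral RNA, block its translation, degrade it or present antigen, and STAT2, IRF7 and IRF9 are themselves induced, so that the response feeds back on itself. Liver non-parenchymal cells, stellate cells included, can mount this response.

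The promoters of these genes show which of them carry the letters that ISGF3 and IRF proteins read. RefSeq promoter windows (250 bases before to 50 after the start, GRCm38.p6, which is mm10) were found for 29 of the 40 genes, as 35 windows. The core of the response element was searched as GAAANNGAAA on both strands, where overlapping matches were kept. It was present in 13 of the 35 windows (37.1%), each of a different gene, against 1131 of 32851 windows of all genes (3.44%). The gamma-activated site, TTCNNNGAA, was present in 8 of the 35 windows (22.9%) against 8.3% of all windows. The stretches below are from the 5 genes with the smallest adjusted p, among those given full statistics (at most 10 called genes per comparison), that hold a response element before the start, written 5′ to 3′ on the strand of the gene, with the matching letters in capitals on whichever strand they lie.
Ifit3, chr19:34583343-34583446, plus strand: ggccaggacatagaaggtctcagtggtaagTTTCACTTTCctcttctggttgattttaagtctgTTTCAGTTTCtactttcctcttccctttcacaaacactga
Rsad2, chr12:26456533-26456602, minus strand: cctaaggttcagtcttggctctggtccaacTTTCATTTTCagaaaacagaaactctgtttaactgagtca
Ifit1, chr19:34640755-34640843, plus strand: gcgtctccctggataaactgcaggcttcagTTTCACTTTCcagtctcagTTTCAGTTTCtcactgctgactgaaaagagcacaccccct
Gbp2, chr3:142620574-142620643, plus strand: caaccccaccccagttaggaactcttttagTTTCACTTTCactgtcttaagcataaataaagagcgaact
Bst2, chr8:71537557-71537632, minus strand: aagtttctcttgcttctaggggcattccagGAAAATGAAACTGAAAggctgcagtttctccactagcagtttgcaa
The matches in the Ifit3 promoter begin 156 and 122 bases before the start, those of Ifit1 104 and 85 bases before it, and those of Gbp2 and Rsad2 59 and 120 bases before it. In Bst2 a pair of overlapping matches begins 130 and 124 bases before the start. The other windows with the response element belong to Ddx58, Eif2ak2, Gbp3, Ifih1, Isg15, Oas1a, Oas3 and Stat2. The gamma-activated letters are in windows of Bst2, Eif2ak2, Ifi35, Ifit2, Irf1, Isg20, Oas1a and Psmb8. Promoters that share the element did not share a direction: Ifit3, Ifit1 and Rsad2 were lower in CCl4-fib than in HSCs and Gbp2 was higher.

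The libraries held 3071070 to 5634273 reads on genes, fewest in HSCs. HSC replicate 2 and NASH-fib replicate 1 stood apart from their groups in the same way (r = 0.65 across genes, which are not independent replicates), and both had low values for short genes. Against the other libraries of the group, the median log2 difference of the 8 tested members with under 1500 exonic bases was -1.95 in HSC replicate 2 and -2.58 in NASH-fib replicate 1, and for the 31 longer members it was -0.32 and -0.16. The same contrast over all tested genes was -0.63 and -0.80 for short genes and -0.05 and -0.22 for long ones. The short members are Isg15, Isg20, Ifi27, Ifi35, Bst2, Psmb8, Psmb9 and Zbp1. Counts are therefore also given without this pair of libraries, a choice made after seeing the data. The labels carry a number prefix that these libraries share with CCl4-fib replicate 1, and what it stands for is not given. No prefix held 2 libraries of each of the groups compared, too few for a test within a prefix.

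Markers of other liver cells were read in every group. The summed value of 11 macrophage and Kupffer cell markers was 5184 to 18063 in HSCs, 468 to 930 in CCl4-fib and 3005 to 6545 in NASH-fib. For 11 sinusoidal endothelial markers the ranges were 9210 to 17344, 345 to 452 and 1413 to 4425, and for 11 hepatocyte markers they were 24629 to 51458, 2318 to 3517 and 8078 to 30293. The 6 neutrophil markers summed to 24.6 to 590, 2.38 to 64.9 and 396 to 3436, the 10 lymphocyte markers to 29.2 to 68.4, 5.95 to 11.4 and 56.1 to 242, and the 4 plasmacytoid dendritic cell markers to 0 to 36.4, 1.70 to 7.14 and 16.9 to 99.2. In CCl4-fib, 5 lymphocyte markers (Cd3d and Cd3e among them), the neutrophil markers Csf3r and Ly6g, and Siglech were at 0 in every library. None of the macrophage, endothelial or hepatocyte markers was at 0 in every library of a group. Ptprc, which encodes CD45, was at 88.8 to 315 in HSCs, 8.73 to 25.5 in CCl4-fib and 62.3 to 319 in NASH-fib, although the fibroblasts were sorted as CD45-. The labelled cells were present by the sums of their own markers. The 9 stellate cell markers summed to 55453 or more in HSCs, 16038 to 28109 in CCl4-fib and 30688 to 48827 in NASH-fib. The 7 activated fibroblast markers summed to 45780 to 52913 in CCl4-fib and 23531 to 28038 in NASH-fib, against 6261 to 12011 in HSCs. Single markers differed from these sums. Each kind of fibroblast had 6 stellate cell markers with a log2 fold change below 0 and 3 above. It also had 6 activated fibroblast markers above 0 and 1 below. The log2 fold change of the latter was -1.24 in CCl4-fib and -1.71 in NASH-fib, where limma called it lower. In such bulk libraries, fewer cells of a type and less RNA per cell cannot be told apart.

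**Figure D1:**
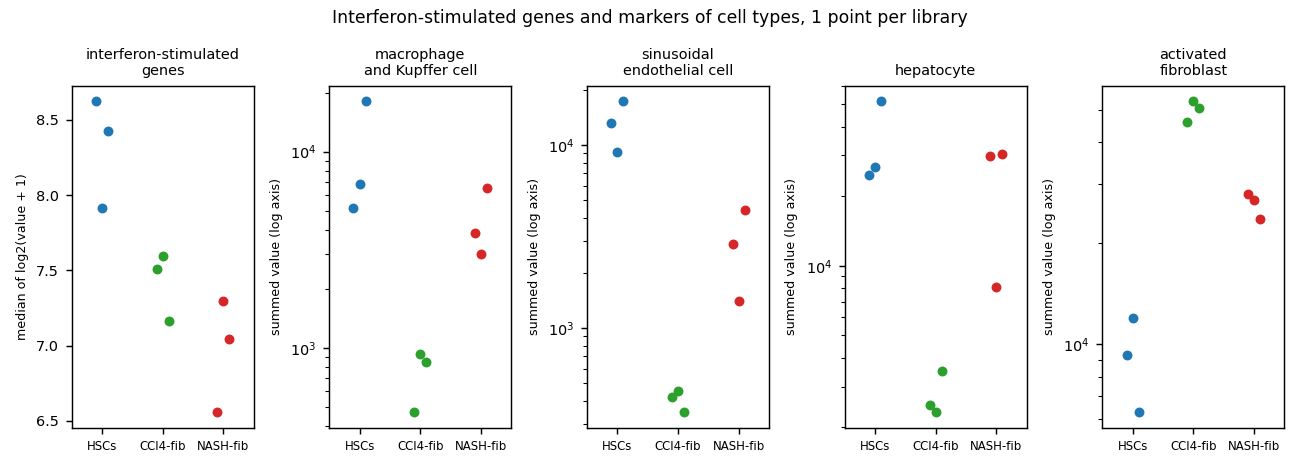
The first panel plots the median of log2(value + 1) over the 40 genes in each library, and the other panels the summed value of each marker list on a log axis, with 1 point per library. HSC libraries lie highest for the interferon-stimulated genes (7.92 to 8.62) and for endothelial markers, and CCl4-fib libraries lie lowest for macrophage, endothelial and hepatocyte markers.

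Most interferon-stimulated genes had their highest level in HSCs. The mean value was highest in HSCs for 26 of the 39 tested members, in CCl4-fib for 9 and in NASH-fib for 4. For all tested genes these shares were 33.7%, 41.1% and 25.2%. The lowest mean was in CCl4-fib for 21 members, in NASH-fib for 14 and in HSCs for 4. For all tested genes the shares were 36.1%, 27.2% and 36.7% in that order. Per length, as RPKM computed from the recovered reads, Rtp4 (430 ± 173, SD, n = 3), Ifit3 (294 ± 60.8) and Ifi27 (247 ± 194) led in HSCs, and these neighbours lay within each other's spread. In CCl4-fib the order began with Ifi27 (437 ± 38.8), Gbp2 (203 ± 48.1) and Bst2 (124 ± 60.1), and in NASH-fib with Ifi27 (388 ± 282), Gbp2 (367 ± 82.6) and Ifi35 (114 ± 93.7). At most 3 reads per position were counted, which compresses high values. The order and spread of Ifi27, Rtp4 and Gbp2 may therefore be affected. Oas3 and Mx1 were last in all 3 groups, with Mx1, whose gene carries a deletion in most inbred laboratory strains, at 0.505 to 1.23 RPKM.

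**Figure D2:**
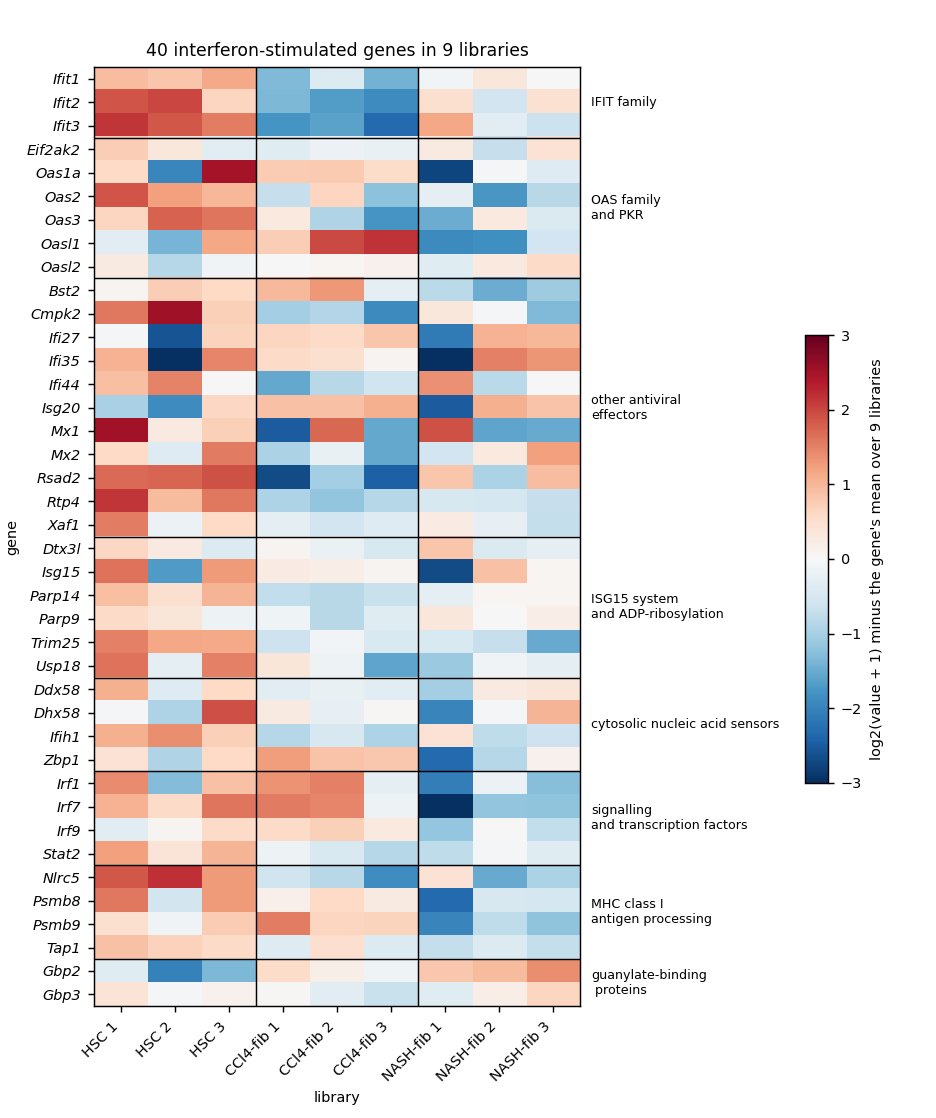
Rows are the 40 genes ordered by role and columns the 9 libraries. Colour gives log2(value + 1) minus the mean of the gene over all libraries, limited to 3 in each direction; the IFIT rows and Trim25 are high across HSCs, the Gbp2 row is high across NASH-fib, and the darkest blue cells of Ifi35, Ifi27 and Isg20 fall in HSC replicate 2 and NASH-fib replicate 1.

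CCl4-fib were compared with HSCs to ask how the genes differ in fibroblasts of a toxic injury. The IFIT genes, Rsad2, Rtp4, Cmpk2 and Nlrc5 were markedly lower in CCl4-fib, and Gbp2 was higher. A gene was called when its log2 fold change was at least 1 in size and its p from limma, adjusted over all tested genes by Benjamini-Hochberg, was under 0.05. By this rule 13 of 39 members were lower, against 11.7% of all tested genes, and 1 was higher, against 16.2%. The median log2 fold change was -0.71 for the members and 0.18 for all tested genes. Of the members 27 of 39 were below 0, and of all tested genes 44.7%. Every CCl4-fib library was lower than every HSC library for 15 members (20.9% of all tested genes) and higher for 3 (27.8%). With the 2 libraries that stood apart left out, 19 members were lower and 1 was higher, against 12.5% and 19.3% of all tested genes.

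The 3 IFIT genes lie side by side on chromosome 19 (mm10) and all fell. Some proteins of this family bind viral RNA and hold back its translation. Ifit3 (chr19:34583529-34588982) was at 3163, 2618 and 2079 in HSCs and at 208, 236 and 141 in CCl4-fib. The groups lay far apart, with a log2 fold change of -3.75 (SE 0.47, adjusted p = 0.000281). Reads of its near-identical copy Ifit3b may be split between both genes, and Ifit3b too had fewer reads in CCl4-fib (80 to 138) than in HSCs (792 to 1440). Ifit2 (chr19:34550694-34576534) was at 1160, 1245 and 489 in HSCs and at 121, 96.1 and 83.0 in CCl4-fib (log2 fold change -3.16, SE 0.45, adjusted p = 0.000662). Ifit1 (chr19:34640889-34650009) was at 615, 569 and 705 against 128, 241 and 120, a smaller difference with no overlap (log2 fold change -2.01, SE 0.36, adjusted p = 0.00219).

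Among the other antiviral effectors, limma called 4 of 11 lower, against 11.7% of all tested genes, and 0 higher, against 16.2%. Another 4 lay above 0 without a call, up to a log2 fold change of 1.69 for Isg20 (adjusted p = 0.188). Rsad2 (chr12:26442743-26456452) encodes viperin, which makes a chain-terminating nucleotide that stops viral RNA synthesis. It was even across HSCs, at 167, 173 and 194, and at 7.14, 24.7 and 8.59 in CCl4-fib (log2 fold change -3.83, SE 0.62, adjusted p = 0.00135). Its neighbour Cmpk2 (chr12:26469215-26479837), a nucleotide kinase of mitochondria, was at 140, 274 and 76.5 against 22.2, 24.7 and 11.4 (log2 fold change -2.89, SE 0.62, adjusted p = 0.00641). Rtp4 (chr16:23609919-23614222), a receptor transporter with antiviral activity, was at 4277, 1861 and 2923 in HSCs and at 506, 425 and 535 in CCl4-fib. Its log2 fold change was -2.55 (SE 0.35, adjusted p = 0.000503). The HSC values of Rtp4 varied among themselves, yet the lowest was over the highest CCl4-fib value. Ifi44 was 413 ± 199 in HSCs and 114 ± 35.5 in CCl4-fib (SD, n = 3; log2 fold change -1.78, adjusted p = 0.0438).

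Genes of RNA sensing, ubiquitin-like modification and antigen presentation also included members that fell. Limma called 1 of 4 sensors, 2 of 6 genes of the ISG15 system and 1 of 4 antigen-processing genes lower, against 11.7% of all tested genes. Zbp1 and Psmb9 lay above 0 without a call (log2 fold changes 0.93 and 0.57, adjusted p = 0.291 and 0.372 in limma). Every CCl4-fib library of Zbp1 was above every HSC library. Nlrc5 (chr8:94472763-94527272), the transactivator of MHC class I genes, was at 241, 300 and 159 in HSCs and at 42.9, 36.6 and 17.2 in CCl4-fib (log2 fold change -2.87, SE 0.58, adjusted p = 0.00456). Ifih1 (chr2:62595793-62646255), the sensor MDA5 of long double-stranded RNA, was at 651, 821 and 508 against 171, 223 and 163 (log2 fold change -1.81, SE 0.40, adjusted p = 0.00689). Both genes had no value in common between the groups. Parp14 (chr16:35832878-35871382), an ADP-ribosyltransferase, was at 411, 306 and 450 against 132, 122 and 138 (log2 fold change -1.55, SE 0.32, adjusted p = 0.00524). Trim25 (chr11:88999403-89020293), the ubiquitin ligase that acts on the RNA sensor RIG-I, was at 478, 371 and 365 against 107, 156 and 121 (log2 fold change -1.66, SE 0.38, adjusted p = 0.00926). Stat2 fell from 302 ± 87.2 to 115 ± 28.0 (log2 fold change -1.37, adjusted p = 0.0254) and Oas2, which makes the activator of RNase L, from 144 ± 49.2 to 46.2 ± 33.3 (log2 fold change -1.80, adjusted p = 0.0455; SD, n = 3 in each group).

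Gbp2 (chr3:142620663-142638008), a guanylate-binding protein that coats vacuoles of pathogens and is a classical target of interferon-γ, moved the other way. It was at 1467, 462 and 748 in HSCs and at 2777, 2128 and 1737 in CCl4-fib (log2 fold change 1.45, SE 0.43, adjusted p = 0.0306). The highest HSC library and the lowest CCl4-fib library lay close together, and the call was lost without HSC replicate 2 (adjusted p up to 0.115 over all alternatives), without HSC replicate 3, without any one CCl4-fib library and in edgeR. Gbp3 was at 737 ± 118 and 536 ± 127 and did not pass the test. Of the 14 calls in this comparison, 9 were kept in each of 20 alternative settings: Ifit1, Ifit2, Ifit3, Rsad2, Rtp4, Cmpk2, Nlrc5, Ifih1 and Parp14. Oas2 kept its call in 10, Ifi44 in 12 and Stat2 in 14 of them. With the label prefix as a term 9 members were lower and 1 was higher, against 7.72% and 10.4% of all tested genes. Beside these differences, 8 of 11 macrophage markers, 11 of 11 endothelial markers and 9 of 11 hepatocyte markers were lower in CCl4-fib, with median log2 fold changes of -4.85, -5.15 and -4.02, as were Ptprc and 1 of 5 tested neutrophil markers, and their part in the result was not tested.

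**Figure D3:**
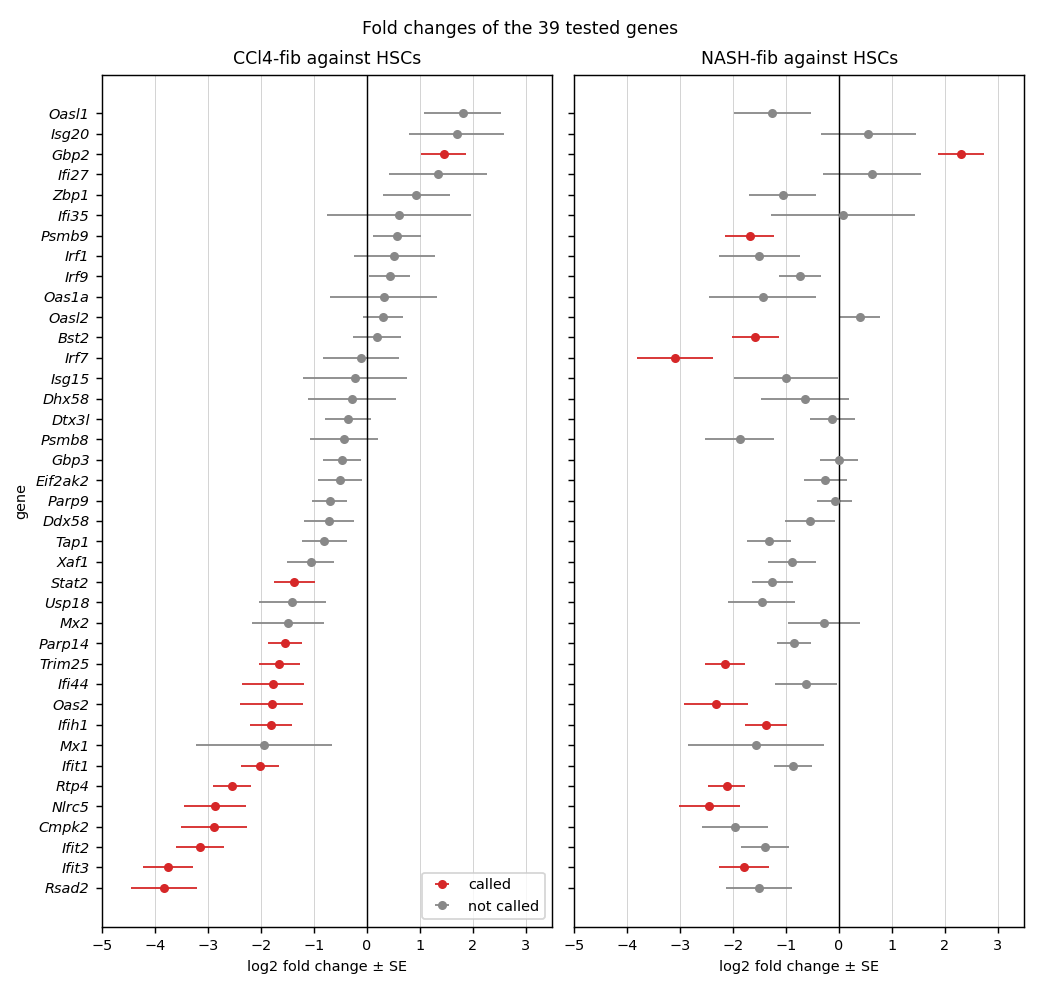
Points are log2 fold changes of the 39 tested genes on the log2(value + 1) scale with SE, for CCl4-fib against HSCs on the left and NASH-fib against HSCs on the right, ordered by the left panel, with called genes in red. Both panels use the same HSC libraries; Rsad2 and Ifit3 lie at the bottom left at -3.83 and -3.75, Irf7 is the lowest gene on the right at -3.10, and Gbp2 is red above 0 in both.

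NASH-fib were compared with HSCs to ask the same of fibroblasts of a metabolic injury. Irf7, Nlrc5, Oas2, Trim25 and Rtp4 were the most reduced genes among the calls, and Gbp2 was again the member that rose. In total 9 of 39 members were lower, against 4.30% of all tested genes, and 1 was higher, against 8.23%. On the recovered reads edgeR called 6 lower, against 3.52% of all tested genes, and DESeq2 11, against 5.44%. The median log2 fold change was -1.26 for the members and -0.02 for all tested genes, with 33 of 39 members and 51.2% of all tested genes below 0. Every NASH-fib library was lower than every HSC library for 16 members (11.6% of all tested genes) and higher for 1 (12.7%). Leaving out HSC replicate 1 gave 2 lower members, leaving out NASH-fib replicate 3 gave 3 and leaving out NASH-fib replicate 2 gave 4, and the share of all tested genes called lower fell too, to 2.34%, 2.92% and 3.02%. Without the 2 libraries that stood apart, 11 members were lower, against 5.03% of all tested genes. With the label prefix as a term 0 were lower by limma, against 0.872% of all tested genes, and 6 lower members had an unadjusted p under 0.05.

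Irf7 (chr7:141263183-141266424), the factor that amplifies type I interferon production, was at 203, 149 and 302 in HSCs and at 6.80, 42.8 and 42.3 in NASH-fib (log2 fold change -3.10, SE 0.72, adjusted p = 0.0163). The groups did not overlap, and NASH-fib replicate 1 was the lowest library. Nlrc5 was at 88.4, 22.3 and 33.4 in NASH-fib, below each HSC value given above (log2 fold change -2.45, SE 0.58, adjusted p = 0.0185). Psmb9 (chr17:34182099-34187330), a catalytic subunit of the immunoproteasome, was at 175, 116 and 215 in HSCs and at 31.3, 73.9 and 54.0 in NASH-fib (log2 fold change -1.69, SE 0.46, adjusted p = 0.0339). Its exons share 212 bases with Tap1 on the opposite strand, and strand was not used in the counting. Tap1, the peptide transporter, was at 96.5 ± 10.3 in HSCs and 38.1 ± 4.78 in NASH-fib (SD, n = 3), and Psmb8 at 258 ± 153 and 67.3 ± 37.1, without passing the test (adjusted p = 0.069 and 0.0928).

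Trim25 was at 121, 102 and 58.0 in NASH-fib, below every HSC library (log2 fold change -2.15, SE 0.38, adjusted p = 0.00371). Rtp4 was the most even of the called genes in NASH-fib, at 697, 674 and 599, with a log2 fold change of -2.12 (SE 0.35, adjusted p = 0.00237). It shares 296 exonic bases with the predicted gene Gm45338 on the same strand. Ifit3 was at 1595, 569 and 455 in NASH-fib, where replicate 1 came near the lowest HSC value of 2079 (log2 fold change -1.79, SE 0.47, adjusted p = 0.0293). Its call was kept in 12 of 20 alternative settings, and edgeR and DESeq2 were among those that lost it (adjusted p up to 0.474 over all alternatives). Ifit1 and Ifit2 were also lower in every NASH-fib library (345 ± 56.4 and 357 ± 128, SD, n = 3) but did not pass the test (adjusted p = 0.169 and 0.077).

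Oas2 was at 200, 127 and 106 in HSCs and at 43.5, 15.1 and 29.5 in NASH-fib (log2 fold change -2.33, SE 0.60, adjusted p = 0.0263). Bst2 (chr8:71534262-71537437), tetherin, which holds budding virions on the cell surface, was at 255, 402 and 365 against 139, 86.4 and 115 (log2 fold change -1.58, SE 0.45, adjusted p = 0.0445). Ifih1 was at 419, 182 and 201 in NASH-fib (log2 fold change -1.38, SE 0.40, adjusted p = 0.0457), and it was the least stable call, kept in 5 of 20 alternative settings. These 3 genes had no overlap between the groups.

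Gbp2 was at 3325, 3670 and 5032 in NASH-fib in each case over the highest HSC value of 1467 (log2 fold change 2.31, SE 0.43, adjusted p = 0.00487). It was the single call of this comparison kept in all 20 alternative settings, whereas Rtp4 and Trim25 were lost with the label prefix as a term alone. Beside these differences, limma called 4 of 11 macrophage markers and 8 of 11 endothelial markers lower in NASH-fib. DESeq2 called the same numbers, and edgeR called 1 macrophage marker (7 had an unadjusted p under 0.05) and 7 endothelial markers. Of 11 hepatocyte markers, 0 were called by limma, edgeR or DESeq2 (1 had an unadjusted p under 0.05 in limma). The neutrophil markers went the other way, with 5 of 5 tested above 0 and a median log2 fold change of 3.65, but 0 called by limma (3 had an unadjusted p under 0.05) or edgeR and 1 by DESeq2. Of 2 tested plasmacytoid dendritic cell markers, 1 was higher by limma and 0 by edgeR or DESeq2. The part of these cells in the result was not tested.

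**Figure D4:**
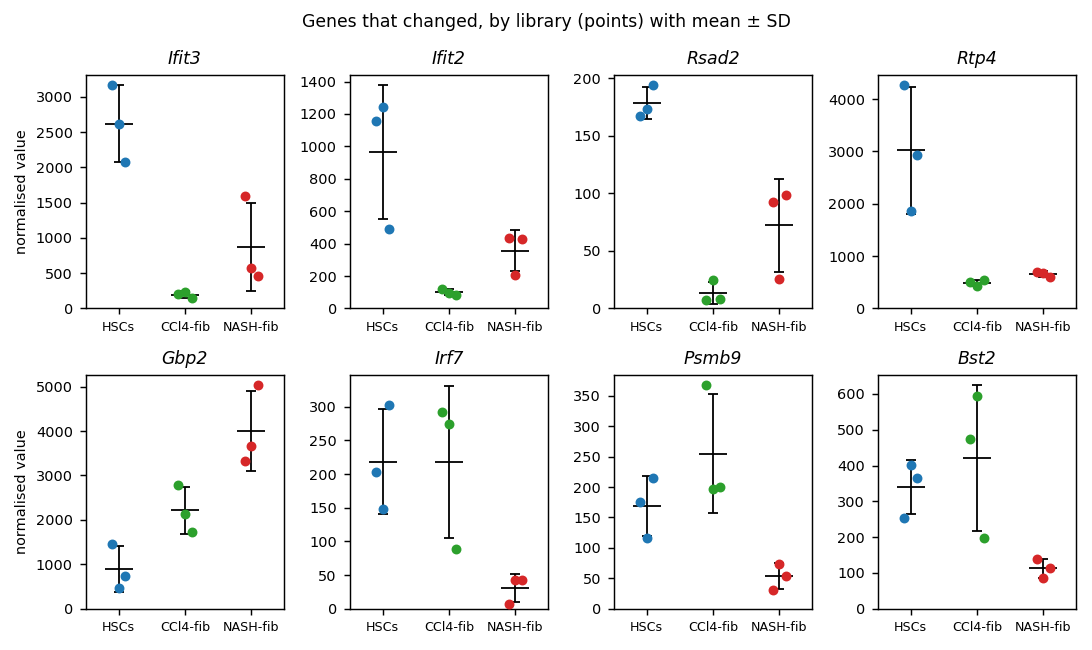
Points are the normalised values of single libraries for 8 called genes, with the group mean and SD as bars, each on its own linear axis from 0. Ifit3, Ifit2, Rsad2 and Rtp4 are highest in HSCs, Gbp2 is highest in NASH-fib at 3325 to 5032, and Irf7, Psmb9 and Bst2 are lowest in NASH-fib.

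NASH-fib were compared with CCl4-fib to ask whether the etiology of the fibrosis makes a difference. In this comparison 3 members were higher and 4 lower in NASH-fib, against 4.97% and 5.66% of all tested genes, and the shares of the list (7.69% and 10.3%) were near this background. The median log2 fold change was 0.11 for the members and -0.11 for all tested genes. TMM scaling moved the latter to 0.07, and the median of the members minus that of all genes was 0.22 in both cases. Every NASH-fib library was higher than every CCl4-fib library for 8 members (17.1% of all tested genes) and lower for 9 (22.0%). Without the 2 libraries that stood apart, 4 members were higher and 5 lower, against 5.49% and 7.22% of all tested genes.

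The members that were higher in NASH-fib were Ifit3, Ifit2 and Rsad2, the same that were lowest in CCl4-fib against HSCs, a comparison that uses the same CCl4-fib libraries. Ifit3 was at 455 to 1595 in NASH-fib and 141 to 236 in CCl4-fib, with a log2 fold change of 1.96 (SE 0.47, adjusted p = 0.0282). Ifit2 was at 435, 209 and 426 against 121, 96.1 and 83.0 (log2 fold change 1.76, SE 0.45, adjusted p = 0.0354). Rsad2 was at 92.4, 25.8 and 98.3 against 7.14, 24.7 and 8.59, so that the nearest libraries of the groups almost touched (log2 fold change 2.32, SE 0.62, adjusted p = 0.0407).

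The members that were lower in NASH-fib were Psmb9, Oasl1, Irf7 and Bst2. Psmb9 was at 367, 196 and 200 in CCl4-fib, over all NASH-fib values (log2 fold change -2.26, SE 0.46, adjusted p = 0.0168). Oasl1, an OAS-like protein that restrains translation of Irf7 mRNA, was at 47.6, 114 and 130 in CCl4-fib and at 6.80, 7.13 and 18.7 in NASH-fib (log2 fold change -3.06, SE 0.73, adjusted p = 0.028). In HSCs it was at 22.2, 10.2 and 64.6, which overlapped both groups. Irf7 was at 293, 274 and 88.7 in CCl4-fib (log2 fold change -2.98, SE 0.72, adjusted p = 0.029), and Bst2 at 475, 595 and 197 (log2 fold change -1.77, SE 0.45, adjusted p = 0.0341). In both of these genes CCl4-fib replicate 3 lay well below the other two and still above NASH-fib.

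None of the 7 calls was kept in all 20 alternative settings. The higher count was 0 when NASH-fib replicate 1, NASH-fib replicate 3 or any one CCl4-fib library was left out, and 1 when HSC replicate 1 was, while the share of all tested genes called higher ran from 0.689% to 3.85% in these settings. The lower count was 0 when CCl4-fib replicate 2 or NASH-fib replicate 3 was left out and 1 when replicate 1 of either fibroblast group was, while 0.623% to 2.56% of all tested genes were called lower. Beside these differences, 9 of 11 endothelial, 6 of 11 hepatocyte and 4 of 11 macrophage markers were higher in NASH-fib, as was Ptprc. So were 3 of 5 tested neutrophil, 1 of 3 tested lymphocyte and 1 of 2 tested plasmacytoid dendritic cell markers, with median log2 fold changes of 4.57, 3.47 and 4.07. The part of these cells in the result was not tested.

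The members without a call in any comparison included the modifier gene Isg15 itself. Isg15, a ubiquitin-like protein conjugated to target proteins, was at 373, 36.4 and 294 in HSCs. Its CCl4-fib values were 143, 138 and 127 and its NASH-fib values 17.7, 220 and 125. HSC replicate 2 and NASH-fib replicate 1 were far below the rest, and the adjusted p ran from 0.631 to 0.879 in the 3 comparisons. Usp18, which removes ISG15 and restrains the receptor, was at 341 ± 188, 127 ± 72.9 and 111 ± 37.0 in HSCs, CCl4-fib and NASH-fib (SD, n = 3). Ifi27 and Ifi35 had the same low pair of libraries, with Ifi35 at 40.8 and 38.1 there and at 404 to 1078 in the other 7 libraries. Isg20, an exonuclease of RNA, was at 52.6, 27.7 and 161 in HSCs and at 193 to 220 in CCl4-fib.

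Oasl2 was abundant in each group, at 1052 ± 388 in HSCs, 1234 ± 54.7 in CCl4-fib and 1367 ± 419 in NASH-fib. Oas1a was at 133, 21.8 and 497 in HSCs, and its near-identical copy Oas1g may take part of its reads. The kinase PKR (Eif2ak2) was at 317 ± 111, 213 ± 14.5 and 268 ± 97.1. The RNA sensors Ddx58 (RIG-I) and Dhx58 (LGP2) had no call either. Ddx58 was at 531 ± 241, 298 ± 12.3 and 363 ± 160 in the same order of groups, and Dhx58, which reached 259 in HSC replicate 3, at 120 ± 122, 69.2 ± 12.0 and 73.3 ± 61.0. Zbp1, a sensor of Z-form nucleic acid that can start necroptosis, was at 113 ± 53.1, 198 ± 35.3 and 60.5 ± 44.9, and every NASH-fib library was below every CCl4-fib library (adjusted p = 0.0687).

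Parp9 and Dtx3l, which act as a pair and share 367 exonic bases on opposite strands, showed no called difference. Parp9 was at 564 ± 142, 344 ± 79.7 and 522 ± 58.0 and Dtx3l at 483 ± 163, 366 ± 73.4 and 459 ± 237 in HSCs, CCl4-fib and NASH-fib. Xaf1, a pro-apoptotic protein, was at 831 ± 484, 354 ± 34.0 and 414 ± 136. The transcription factor gene Irf1 was at 420 ± 295, 528 ± 281 and 130 ± 86.7, and Irf9, the DNA-binding part of ISGF3, at 347 ± 112, 454 ± 67.6 and 212 ± 87.9, both with the lowest mean in NASH-fib. Mx2, a GTPase, was at 47.5 ± 31.0, 15.0 ± 7.31 and 38.2 ± 23.5. Mx1 reached 31.6 in 1 HSC library and 0 in 1 CCl4-fib library, and Oas3 was at 9.35, 21.8 and 19.1 in HSCs and at most 7.14 in the other groups, which is too few reads for a test.

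The genes that produce, receive and limit the signal were taken from lists of 54 genes, of which 31 were tested. Of 21 interferon ligand genes, 20 had no read in any library, and Ifnk was at 2.91 in HSC replicate 2 alone, from 2 reads. The files thus hold the response genes but hardly any reads of the ligands, at a depth where 3 reads correspond to a value of 2.38 to 4.37. Among 12 receptor and JAK-STAT genes, limma called 5 lower and 0 higher in CCl4-fib than in HSCs, against 11.7% and 16.2% of all tested genes. In limma 6 and 2 of the 12 had an unadjusted p under 0.05. Of the other tools, edgeR called 5 lower and DESeq2 6, and neither called a gene higher. In NASH-fib limma called 2 lower and 1 higher than in HSCs, against 4.30% and 8.23% of all tested genes. There edgeR called 1 and 0 of the 12 and DESeq2 3 and 1. The median log2 fold change of this list was -0.62 and -0.79.

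The receptor chain Ifnar2 was at 694 ± 93.1 in HSCs, 270 ± 15.5 in CCl4-fib and 310 ± 39.4 in NASH-fib (SD, n = 3), lower in both against the same HSCs (log2 fold changes -1.35 and -1.16, adjusted p = 0.00695 and 0.0266). Ifnar1, the other chain, was at 241 ± 41.2, 460 ± 32.9 and 169 ± 41.1, and was lower in NASH-fib than in CCl4-fib (log2 fold change -1.47, adjusted p = 0.0233). The interferon-γ receptor genes Ifngr1 and Ifngr2 were at 512 to 692 and at 521 to 728 as group means and passed no test. Jak1 fell from 3634 ± 1135 to 909 ± 45.4 in CCl4-fib (log2 fold change -1.95, adjusted p = 0.00321). Jak2, a kinase of the interferon-γ receptor, fell from 564 ± 185 to 249 ± 15.1 (log2 fold change -1.12, adjusted p = 0.0453), and Irf2, which competes with Irf1 for its sites, from 653 ± 131 to 293 ± 61.4 (log2 fold change -1.16, adjusted p = 0.0246). Irf8, a factor of myeloid cells, fell from 153 ± 30.9 to 14.7 ± 10.4 (log2 fold change -3.49, adjusted p = 0.00187). Tyk2 was at 48.4, 67.6 and 34.7 as means of HSCs, CCl4-fib and NASH-fib, with no call. Il10rb, the shared chain of the interferon-λ receptor, was lower in NASH-fib than in HSCs (log2 fold change -1.48, adjusted p = 0.0124). Its partner Ifnlr1 was higher there (log2 fold change 3.83, adjusted p = 0.0299) from values of 8.18, 0 and 0 in HSCs to 20.4, 20.5 and 57.0.

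Of 12 tested inducers of interferon, 3 rose and 2 fell in CCl4-fib against HSCs, near the shares of 16.2% and 11.7% of all tested genes, and edgeR called 1 each way. Myd88 and Ticam1, the adaptors of Toll-like receptors, rose (log2 fold changes 1.43 and 1.90, adjusted p = 0.0294 and 0.0422), as did the transcription factor gene Irf5 (1.20, adjusted p = 0.0464). Tlr3, the endosomal RNA sensor, fell (-1.72, adjusted p = 0.0143), and so did Mb21d1, the DNA sensor cGAS (-2.48, adjusted p = 0.0428). Mb21d1 rested on few reads, at 30.4, 33.5 and 43.0 in HSCs and 4.76, 2.55 and 12.4 in CCl4-fib. In the CCl4-fib libraries 3 reads correspond to a value of 2.38 to 2.86. Myd88 was in turn lower in NASH-fib than in CCl4-fib (-1.88, adjusted p = 0.0234). Of 7 tested negative regulators, Socs3 and the phosphatase gene Ptpn2 rose in CCl4-fib against HSCs (2.35 and 1.47, adjusted p = 0.00367 and 0.0124), and Ptpn6 and Rnf125 fell (-3.10 and -3.61, adjusted p = 0.0119 and 0.0308). Ptpn2 was lower and Rnf125 higher in NASH-fib than in CCl4-fib (-1.33 and 3.97, adjusted p = 0.0417 and 0.0422). There edgeR called 1 gene of this list higher and 0 lower. Rnf125 was at 885, 33.8 and 252 in NASH-fib, 8.59 to 16.7 in CCl4-fib and 59.6, 514 and 117 in HSCs. Its highest values in NASH-fib and in HSCs were in the 2 libraries that stood apart.

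A further list of 65 interferon-induced genes outside the 40, with 61 tested, gave 22 lower (36.1%, against 11.7% of all tested genes) and 4 higher genes (6.56%, against 16.2%) in CCl4-fib against HSCs, with a median log2 fold change of -0.78 where that of all tested genes was 0.18. In NASH-fib against HSCs it gave 6 lower (9.84%, against 4.30%) and 1 higher (1.64%, against 8.23%) with a median of -0.63, against -0.02 for all. In NASH-fib against CCl4-fib it gave 5 lower (8.20%, against 5.66%) and 2 higher (3.28%, against 4.97%) with a median of 0.02, and here the balance depended on the tool, with 4 lower and 4 higher in edgeR and 6 lower and 16 higher in DESeq2. Of this list, 52 of 61 genes were below 0 in NASH-fib against HSCs and 45 of 61 in CCl4-fib against HSCs. For all tested genes the shares were 51.2% and 44.7%.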

How the data were processed

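SMARTer amplification of RNA from pooled cells preceded single-end sequencing. The authors aligned the reads to mm10 with STAR, and HOMER counted reads of either strand on RefSeq exons, with at most 3 reads per position. The deposited values are a normalised signal per gene, and their header names a DESeq2 normalisation of 10 libraries. Of these, 9 were analysed here, and 0 value columns were left unused. In each of the 9 the values sum to the same total of 4.47e+06. Each value is a whole multiple of what 1 read is worth in its library, so reads were recovered. Since the signal is not a count, log2(value + 1) was tested with limma 3.58.1 (R 4.3.3), in 1 fit of 9 libraries with a trended prior, on genes kept by filterByExpr of edgeR 4.0.16 (minimum count 10). P-values were adjusted by Benjamini-Hochberg over 13651 genes. Calls needed an adjusted p under 0.05 and a log2 fold change of 1 or more in either direction. Fold changes on this scale understate those of low genes. The limit of 3 reads per position compresses high values, and Ifi27, Rtp4 and Gbp2 reached 2.82, 2.33 and 2.10 reads per exonic base. No library duplicated another. All 40 genes are named, and called genes get full statistics, at most 10 per comparison. Pathway genes are named if called, at most 5 per list and comparison, besides the main receptor and kinase genes. Of the genes this rule selects, 1 is not reported here. The genes and lists were chosen with earlier results of these data known. Alternatives were edgeR, DESeq2 1.42.0, other scalings, filters and pseudocounts, a replicate block, the label prefix, the compared groups alone, and libraries left out.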

Additional observations from a re-analysis of the deposited data

Results flagged for a closer look

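For 7 genes the difference from HSCs was called unequal in the 2 kinds of fibroblast. The test was the direct comparison of NASH-fib with CCl4-fib, in which the HSC libraries cancel. It called 7.69% of the tested members higher and 10.3% lower, near the 4.97% and 5.66% of all tested genes. None of the 7 calls was kept in all 20 alternative settings, and 6 were lost with the label prefix as a term. The fold change against HSCs was less negative in NASH-fib by a log2 value of 1.96 for Ifit3, 1.76 for Ifit2 and 2.32 for Rsad2. It was lower in NASH-fib, with differences of -2.26 for Psmb9, -3.06 for Oasl1, -2.98 for Irf7 and -1.77 for Bst2. Markers of sinusoidal endothelial cells, hepatocytes, macrophages and neutrophils were also higher in NASH-fib, and their part in these differences was not tested.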

How the results depend on the processing

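No called gene reversed its direction in any of the 20 alternatives. With the label prefix as a term, 0 members were lower in NASH-fib than in HSCs, against 0.872% of all tested genes. In NASH-fib against CCl4-fib 1 was then higher and 0 lower, against 2.52% and 1.82%. edgeR on the recovered reads called 0 members higher in CCl4-fib than in HSCs (1 had an unadjusted p under 0.05), against 13.7% of all tested genes. A fit of the compared groups alone called 2 members lower in NASH-fib than in CCl4-fib, against 5.53% of all tested genes. Same-numbered libraries showed no consistent pairing: their deviations correlated from -0.47 to 0.51, the highest for HSC replicate 3 and NASH-fib replicate 3. With a replicate block 1 member was higher and 2 were lower in NASH-fib than in CCl4-fib, against 3.46% and 3.35% of all tested genes. With it 6 and 10 members were lower in NASH-fib and CCl4-fib than in HSCs, against 3.44% and 10.2%. With 1 library left out, 2 to 9 members were lower and 1 higher in NASH-fib than in HSCs. The shares of all tested genes were 2.34% to 5.05% and 6.21% to 9.24%. In CCl4-fib against HSCs 10 to 13 members were lower and 0 to 2 higher, beside 7.94% to 13.7% and 9.78% to 20.8%. In NASH-fib against CCl4-fib 0 to 5 members were lower and 0 to 3 higher, beside 0.623% to 7.28% and 0.689% to 5.61%. The cause was not tested. Depth limits Oas3 and Mx1, which had at most 27 reads in a library.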
